A study of Cordyceps militaris with 6 samples.

Results

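The cordycepin and pentostatin cluster of Cordyceps militaris consists of the 4 adjacent genes cns1 (CCM_04436), cns2 (CCM_04437), cns3 (CCM_04438) and cns4 (CCM_04439), chosen by these locus tags out of 10385 genes in the deposited expression table. All 4 had a mean of at least 1 FPKM (fragments per kilobase of gene length, scaled to library size), as did 8483 genes in all. The tables carry the locus tags and product texts, and the cns names come from published knowledge of the cluster. The product texts were an oxidoreductase domain protein for cns1, a phosphoribosyl-aminoimidazole-succinocarboxamide synthase for cns2, an ATP phosphoribosyltransferase domain protein for cns3 and an ABC multidrug transporter for cns4. The text for cns2 does not name the phosphohydrolase role known for this protein.

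Cordycepin is an adenosine analogue that lacks a hydroxyl group on its ribose, and it is the best known secondary metabolite of this fungus. Cns1, an oxidoreductase, and Cns2, a metal-dependent phosphohydrolase, make cordycepin from adenosine phosphates. Cns3, with a nucleoside kinase part and an ATP phosphoribosyltransferase part, phosphorylates adenosine for that route and makes pentostatin, an inhibitor of adenosine deaminase that keeps cordycepin from being deaminated. Cns4 is a transporter of the pleiotropic drug resistance kind that exports pentostatin.

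The study followed the YCC strain through serial subculture to see how its transcriptome changes, with poly(A) RNA from mycelium at passages 1, 2, 3, 4, 5 and 6. All cultures were shaken in liquid medium in the dark for 72 h, and cDNA fragments of about 200 bp were sequenced. There was 1 library per passage, and all 6 descend from one lineage, so differences between single passages have no replicate check, and adjacent passages need not be independent. Total expected counts ran from 9740171 in passage 1 to 13813999 in passage 2, and the number of genes with any count was 9254 to 9449. Passage 1 differed from the later libraries in how its reads were spread along genes, with relatively more of them in long genes and at the upstream end. Its median log2 difference from the mean of the later passages was -0.39 in the shortest tertile of genes and 0.33 in the longest.

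cns2 and cns1 were among the more abundant transcripts of the mycelium, cns3 was intermediate and cns4 was low. cns1 stood at 237.9, 175.9, 68.0, 134.8, 73.3 and 250.5 FPKM in passages 1 to 6. It was high at both ends of the series and lowest in passages 3 and 5. cns2 stood at 214.8, 338.0, 163.1, 278.0, 131.5 and 551.2 FPKM in the same order. Its level in passage 6 was above that of all but 1.99% of the genes. cns3, the kinase and phosphoribosyltransferase gene, stood at 49.7, 56.4, 44.8, 62.5, 29.1 and 65.9 FPKM. Passage 5 was its lowest library and passage 6 its highest. cns4, the transporter gene, stood at 14.97, 10.25, 11.55, 11, 10.12 and 11.09 FPKM. Passage 1 was above the other 5 libraries, which lay close together. Per kilobase, the order cns2, cns1, cns3, cns4 held in every library but passage 1, where cns1 was above cns2. Counting error is small beside these levels, since the smallest count of a cluster gene was 509, for cns4 in passage 5. It is not small beside the differences of cns4 among passages 2 to 6.

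**Figure D1:**
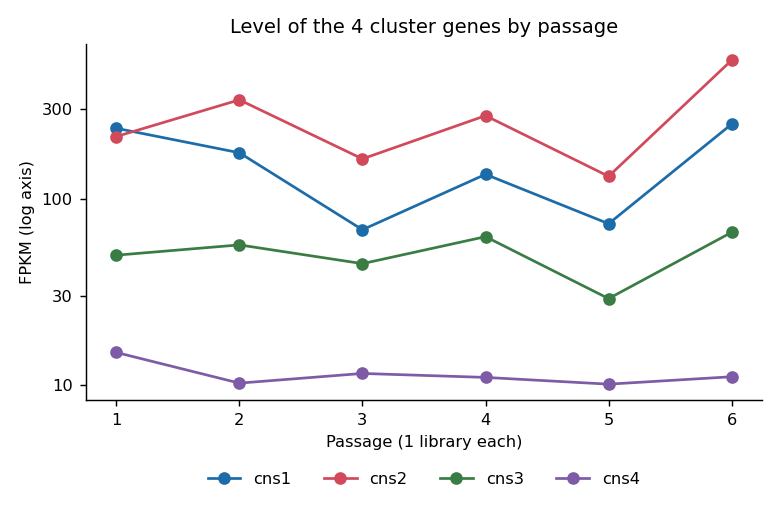
Deposited FPKM (log axis) of cns1, cns2, cns3 and cns4 against passage, 1 library per point. cns1, cns2 and cns3 are lower, higher, lower and higher at the steps from passage 2 to passage 6, while cns4 stays between 10.1 and 11.6 FPKM over those passages.

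From passage 2 onward the 3 biosynthetic genes were high and low in the same libraries, and the transporter gene stayed nearly level. In RNA from whole mycelium, fewer cells that express a gene and less RNA per cell cannot be told apart. cns1, cns2 and cns3 were each lower in passage 3 than in 2, higher in 4, lower in 5 and higher in 6, on counts scaled between libraries by the TMM method (trimmed mean of M values). This sequence of signs was not particular to the cluster, since 18.6% of 8483 genes had it, and the same 3 genes and 17.9% of genes had it with the length trend of each library removed. At each of the 4 steps, between 1.66% and 25.9% of all genes had a step larger in size than that of the gene in question among these 3, and between 79.2% and 87.8% had a larger one than cns4. From passage 2 to 3, cns1 had a log2 ratio of -1.45 (95% counting interval -1.53 to -1.38) and cns2 of -1.13 (-1.21 to -1.06). These 2 of the 4 genes were at least 2-fold lower at a step where 2.61% of genes were. From passage 3 to 4, cns1 had a log2 ratio of 0.997, cns2 of 0.78 and cns3 of 0.49, and none of the 4 was at least 2-fold higher, as 4.01% of genes were. From passage 4 to 5, cns2 was 2.00-fold lower and cns3 2.03-fold lower, where 3.5% of genes were at least 2-fold lower, and cns1 was 1.74-fold lower. Both lie on the threshold: the log2 ratio of cns2 was -0.997 with DESeq2's size factors and that of cns3 -0.996 with the length trend removed. From passage 5 to 6, cns2 was 4.09-fold higher (log2 2.03, interval 1.96 to 2.11), cns1 3.33-fold (log2 1.74, interval 1.67 to 1.81) and cns3 2.21-fold (log2 1.14, interval 1.03 to 1.26). At this step 6.42% of genes were at least 2-fold higher. Without replicates these intervals cover counting error only, and amplified reads are not independent molecules.

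The step from passage 5 to 6 was present at both ends of the coding sequence. In place of whole-gene counts, read depth was averaged over variant sites in the upstream and in the downstream tertile of each coding length, a view chosen after the data were seen. For cns1 the depth was 2.39-fold higher upstream and 3.49-fold higher downstream. The same step was 2.53-fold and 3.00-fold for cns2, and 1.57-fold and 1.90-fold for cns3. For cns4 it was 1.04-fold upstream and 0.826-fold downstream. All 3 biosynthetic genes therefore had more depth in passage 6 than in 5 at either end, and more so downstream. For cns2 and cns3, however, both ends fell short of the whole-gene steps of 4.09-fold and 2.21-fold, and cns3 was below 2-fold at both. The whole-gene step of cns1, 3.33-fold, lay between its ends.

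cns4 was among the most even genes of passages 2 to 6. Its highest and lowest of these 5 libraries differed by 0.10 on the log2 scale, or 1.07-fold, and 99.4% of genes had a wider range. That range is narrower than the counting interval of a step, such as -0.09 to 0.26 from passage 2 to 3, so its exact rank is uncertain. On site depth cns4 was less even, with a log2 ratio of -0.41 upstream and 0.14 downstream at that step. cns2 spanned 4.09-fold over the same 5 libraries, cns1 3.82-fold and cns3 2.21-fold, and only 4.37%, 5.01% and 15.5% of genes had a wider range. The median gene had a log2 range of 0.55. With the length trend removed, the log2 range of cns4 over these libraries was 0.20 and that of cns2 1.98. Over all 6 libraries cns4 had a log2 range of 0.77, with passage 1 as its highest value.

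The balance between the genes also differed between passages, which can be read within a library and needs no scaling between libraries. The cns2 to cns1 ratio of FPKM was 0.903 (95% counting interval 0.859 to 0.949) in passage 1. It was 1.92, 2.40, 2.06, 1.79 and 2.20 in passages 2 to 6. On whole-gene FPKM the pair that makes cordycepin was thus close to even in passage 1 and tilted towards cns2 in each later passage. This shift depended on the treatment of gene length and on the end of the genes: with the length trend removed the passage 1 ratio was 1.19, still the lowest of the 6, and the others ran from 1.70 to 2.31. On the same site depths, the ratio in the upstream tertile was 0.477 in passage 1 and 1.08 to 1.76 later. In the downstream tertile it was 1.23 in passage 1 and 1.08 to 1.51 later, so passage 1 was not the lowest there. The cns3 to cns2 ratio was lowest in passage 6, at 0.120 (interval 0.114 to 0.125), against 0.167 to 0.275 in the other passages. The cns4 to cns3 ratio, which sets the pentostatin exporter gene beside the pentostatin synthesis gene, ran from 0.168 in passage 6 to 0.348 in passage 5. Its counting intervals in passages 2, 4 and 6 overlap. With the length trend removed it was lowest in passage 4, at 0.176, with 0.178 in passage 6, and still highest in passage 5, at 0.354.

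Set against passage 1 on TMM-scaled counts, cns1 had the largest differences of the 4 genes in passages 3, 4 and 5. The largest was that of cns4 in passage 2 and that of cns2 in passage 6. In passage 2 the ranking depended on the scaling. There cns2 was largest on deposited FPKM (0.65), and cns4 was smallest with the length trend removed (-0.19). The log2 ratios of cns1 were -0.64, -2.10, -1.10, -1.90 and -0.16 over passages 2 to 6. It was at least 2-fold lower in passages 3, 4 and 5. In passage 6 its sign depended on the scaling, with 0.07 on deposited FPKM and 0.18 with the length trend removed. The share of all genes at least 2-fold lower was 13.4% for passage 3, 9.97% for passage 4, 13.4% for passage 5 and 10.8% for passage 6, so 1 of 4 genes is not far from this background. cns2 had log2 ratios of 0.45, -0.69, 0.09, -0.91 and 1.12 in passages 2 to 6. Passage 6 was the only one in which a cluster gene was at least 2-fold higher, as 12.1% of genes were (12.6% for passage 3, 10.6% for passage 4 and 12% for passage 5). cns3 had log2 ratios of -0.02, -0.44, 0.05, -0.97 and 0.17. Those of cns4 were -0.75, -0.66, -0.72, -0.77 and -0.67, so each later passage was lower by nearly the same amount. In passage 2 no cluster gene was at least 2-fold higher or lower, where 9.96% and 10.9% of genes were.

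**Figure D2:**
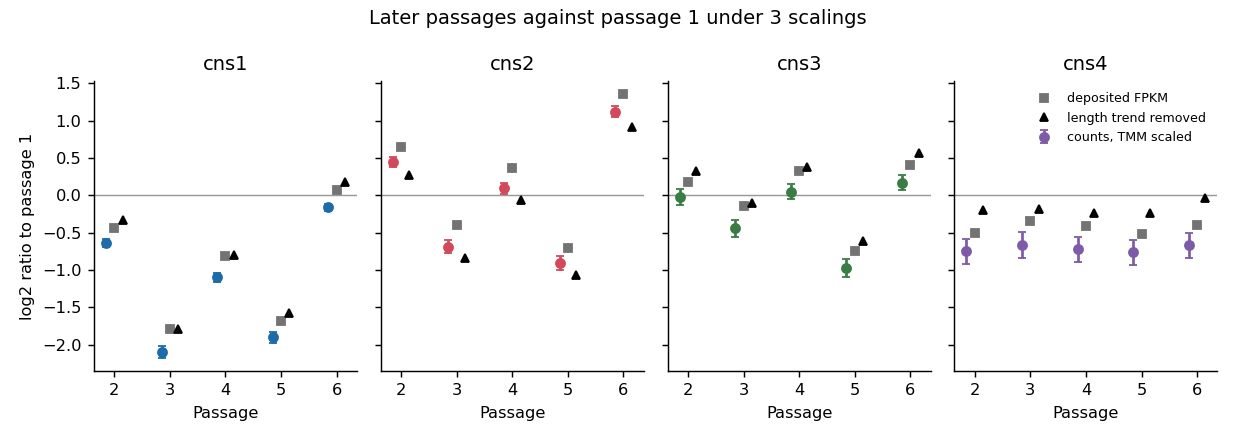
Log2 ratio of each later passage to passage 1 for the 4 genes, from TMM-scaled counts (coloured, bars are 95% counting intervals), deposited FPKM (squares) and counts with the length trend removed (triangles). The triangles of cns4 lie between -0.24 and -0.04, while cns1 in passage 3 lies at -1.79 or lower under all 3.

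The scaling mattered for the smaller of these ratios. On the deposited FPKM, as log2(FPKM + 1), the median of all genes itself lay 0.19 to 0.27 above passage 1, and cns1 in passage 4 had a ratio of -0.82 and so was not 2-fold lower. With the length trend removed it had -0.80, cns2 in passage 6 had 0.91, and cns4 ran from -0.24 to -0.04. cns2 in passage 5 then had -1.07, so that cns1 and cns2 were both at least 2-fold lower there. In the authors' deposited tables of genes called against passage 1, cns1 was listed in passage 3 with a log2 ratio of -1.81 and in passage 5 with -1.70. The authors' deposited table for passage 6 listed cns2 with 1.36. Those tables set 1 library against 1, and their p-values speak of libraries only.

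A pair of tests over all 8758 genes that passed edgeR's filter asked for a change with passage number and for a difference of passage 1 from the rest. For the trend, edgeR's quasi-likelihood test with Benjamini-Hochberg adjustment called 0 genes (0% of those tested, 1129 with an unadjusted p under 0.05). limma on log2(FPKM + 1) also called 0, with 958 unadjusted, and DESeq2 called 56, with no cluster gene among them. The slopes per passage were -0.07 (SE 0.15) for cns1, 0.11 (SE 0.13) for cns2, -0.02 (SE 0.09) for cns3 and -0.11 (SE 0.06) for cns4. No steady rise or fall of a cluster gene was detectable against its scatter. Leaving out passage 6 gave cns1 a slope of -0.42 (SE 0.14), with an edgeR adjusted p of 0.322.

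For passage 1 against passages 2 to 6, edgeR called 24% of the genes, 839 higher and 1264 (14.4%) lower in the later passages, and cns4 was the 1 cluster gene called. cns4 was lower by a log2 difference of -0.72 (SE 0.13, edgeR adjusted p 0.0112), in 5 of 5 later libraries. Removing the length trend ended the call (-0.19, SE 0.14, edgeR adjusted p 0.369), as did using limma on log2(FPKM + 1), where the adjusted p was 0.0887. cns1 had a log2 difference of -1.003 (SE 0.63, edgeR adjusted p 0.276), cns2 one of 0.20 (SE 0.71, adjusted p 0.857) and cns3 one of -0.19 (SE 0.38, adjusted p 0.744). This test assumes that the lone passage 1 library varies like the other 5. The comparison was made with earlier results of these data known.

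The distribution of reads along the genes differed between passage 1 and the later libraries. Over 4166 genes with sites in both outer tertiles, the median log2 ratio of upstream to downstream depth was 0.47 for passage 1, 0.29 for passage 2 and 0.06 to 0.15 for passages 3 to 6. Passage 1 had the highest ratio of the 6 libraries in 54.6% of these genes. For cns4 the mean depth in passage 1 was 50.9 reads upstream and 16.4 downstream, a 3.10-fold difference, against 1.46-fold to 2.13-fold in later passages. For cns1 the ratio was 1.66 in passage 1 and between 0.727 and 1.06 later. cns3 had 1.07 in passage 1 and 0.688 to 0.871 later. cns2, the shortest of the 4 with a coding length of 1038 bases, went the other way, with 0.641 in passage 1 and 0.688 to 0.885 later.

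**Figure D3:**
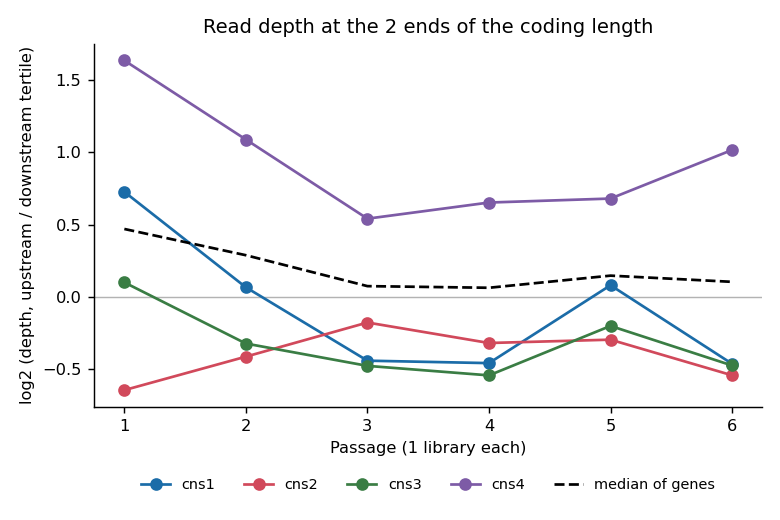
Log2 ratio of mean read depth at variant sites in the upstream tertile to that in the downstream tertile of the coding length, by passage, for the 4 genes and for the median of 4166 genes (dashed). Passage 1 is the highest point for cns1, cns3, cns4 and the median gene, and the lowest for cns2.

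The differences from passage 1 accordingly depended on the end of the gene. In the upstream tertile, depth of cns4 relative to passage 1 gave log2 ratios from -1.35 to -0.94. In the downstream tertile they ran from -0.57 to -0.11. For cns1, the ratios in passages 2, 4 and 6 were -0.77, -1.25 and -0.65 upstream but -0.11, -0.07 and 0.54 downstream. In passages 3 and 5 cns1 was lower at both ends, 4.74-fold and 3.75-fold upstream and 2.11-fold and 2.40-fold downstream. The cns2 ratio in passage 6 was 0.71 upstream and 0.60 downstream, below its whole-gene ratio of 1.12 at both ends. On site depth cns2 was thus less than 2-fold higher at either end. The sites of a gene share reads, few sites stand behind each mean (2 to 11), and the part of read distribution in the whole-gene ratios was not tested.

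Over the 6 libraries, log2 CPM (counts scaled to library size, TMM) of cns1 and cns2 had a Pearson r of 0.816, cns2 and cns3 of 0.866, and cns1 and cns3 of 0.799. cns4 had 0.556 with cns1, 0.03 with cns2 and 0.285 with cns3. These are descriptions over 6 libraries that share one lineage. Without passage 1, cns1 and cns2 had an r of 0.981, and cns4 and cns1 one of 0.105. Many genes were as alike: 181 of 6283 genes with at least 10 FPKM on average had an r above 0.9 with cns1, 63 with cns2, 24 with cns3 and 777 with cns4. In the order of likeness to cns1, cns2 came at rank 486 over all 6 libraries and at rank 34 without passage 1. For cns3, cns2 came at rank 43 and without passage 1 at rank 189, and for cns2, cns3 came at ranks 109 and 389.

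The genes most like cns1 were a flavin monooxygenase-like gene (CCM_00079, r 0.997), an integral membrane protein gene (CCM_05405, r 0.990), a DUF1760 gene (CCM_07550), a class 2 lipase gene (CCM_09089) and an EF-hand gene (CCM_05152, r 0.985). CCM_05405 stood at 742.0, 529.6, 151.8, 291.4, 191.2 and 747.4 FPKM in passages 1 to 6, with the same high and low libraries as cns1. Those most like cns2 were a secreted lipase gene (CCM_04970, r 0.992), a ribonuclease P subunit gene (CCM_05668), a protein kinase-like gene (CCM_07152), a tetratricopeptide gene (CCM_01109) and a taurine dioxygenase gene (CCM_03459, r 0.978). For cns3 they were an ankyrin repeat gene (CCM_04296, r 0.949), the mRNA capping enzyme alpha subunit gene (CCM_02636), a serine/threonine kinase gene (CCM_01369), a zinc cluster DNA-binding gene (CCM_07141) and a chloride channel gene (CCM_04734, r 0.934). cns4 was most like genes with a high passage 1 and a flat course afterwards, led by a tRNA nucleotidyltransferase gene (CCM_00386, r 0.998) and followed by a chromo domain gene (CCM_03754), a transcription factor gene (CCM_04190), the SAR1 GTPase gene (CCM_02792) and an AAA ATPase gene (CCM_01816, r 0.993). Much of this likeness to cns4 rested on passage 1, since without it r ran from 0.618 for CCM_01816 to 0.899 for CCM_00386.

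Of the 10 genes flanking the cluster, 5 on each side, 2 had the sign sequence of cns1, cns2 and cns3 over passages 2 to 6, a share near the 18.6% of all genes. They were CCM_04440, a methyltransferase gene next to cns4 that stood at 27.3 FPKM in passage 6 and 10.4 to 14.4 FPKM in the others, and CCM_04433, a hypothetical protein gene at 4.67, 2.76, 7.14, 4.44 and 8.35 FPKM in passages 2 to 6. Between passage 1 and the later passages edgeR called 3 of the 10 neighbours, close to the 24% called over all genes. CCM_04433 stood at 42.0 FPKM in passage 1 and so was lower later (log2 -3.18, SE 0.43, edgeR adjusted p 0.00499). CCM_04432, a WD domain gene, had a log2 difference of -1.24 (SE 0.17, edgeR adjusted p 0.00544). CCM_04441, a WW domain gene, had one of 0.60 (SE 0.18, edgeR adjusted p 0.0454), a call that ended when the length trend was taken out (adjusted p 0.221). The other 7 were not called: the LYR gene CCM_04431, the phosphotransferase gene CCM_04434, the CLN3 gene CCM_04435, CCM_04440, the metacaspase gene CCM_04442, the vacuolar calcium transporter gene CCM_04443 and the acyltransferase gene CCM_04444. CCM_04435, which borders cns1, stood between 7.59 and 10.6 FPKM in all 6 libraries.

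**Figure D4:**
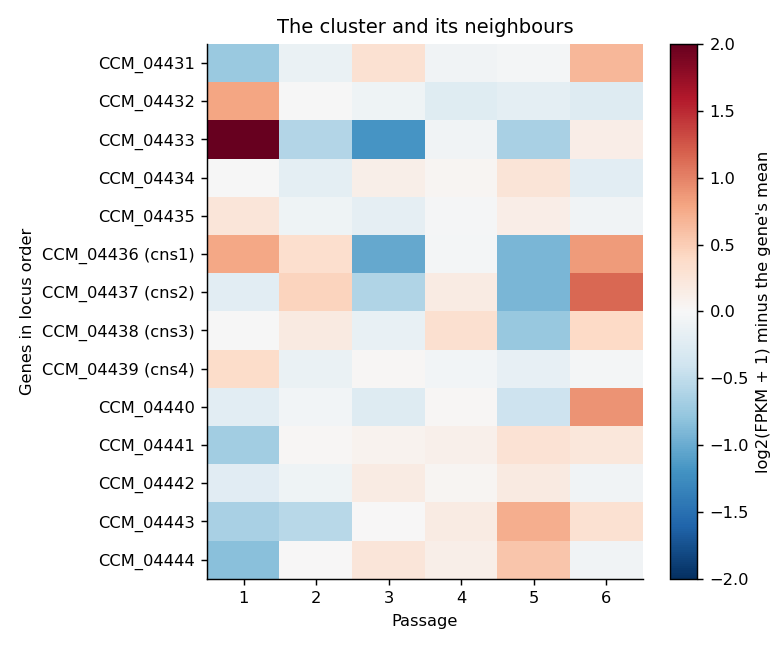
The 4 cluster genes and 5 genes on each side in locus order (rows) by passage (columns); colour is log2(FPKM + 1) minus the gene's mean over 6 libraries. The bands of cns1, cns2 and cns3 alternate over passages 2 to 6, and CCM_04433 is high in passage 1 alone.

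Genes that handle the substrates and products of the cluster were read from product texts, in lists drawn up with earlier results of these data known. No gene of the 3 lists was called for the trend by edgeR. In purine and adenosine metabolism, 42 of 47 genes were tested for passage 1 against later passages, and 5 were higher and 6 lower later, close in sum to the 24% called over all genes, with a median log2 difference of 0.07 against 0.05 over all genes. The adenosine deaminase gene CCM_02911, whose kind of enzyme pentostatin inhibits, fell from 52.4 FPKM in passage 1 to between 19.6 and 23.9 FPKM (log2 -1.49, SE 0.16, edgeR adjusted p 0.00345), and the fall held with the length trend removed (-1.32, adjusted p 0.00747). AMP deaminase (CCM_09680) rose from 28.1 FPKM to between 54.2 and 67.8 FPKM (log2 0.89, SE 0.16, edgeR adjusted p 0.012). The adenosine/AMP deaminase gene CCM_09449 rose by 0.68 (edgeR adjusted p 0.041, and 0.108 with the length trend removed). A further 2 deaminase genes were not called, CCM_07169 at -0.13 (adjusted p 0.746) and the tRNA-specific CCM_03277 at 0.59 (adjusted p 0.071). Adenosine kinase (CCM_02716), which makes AMP from adenosine, stood between 235.3 and 327.0 FPKM and was not called (0.06, edgeR adjusted p 0.857).

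Among the other purine genes with the smallest p, adenylosuccinate lyase (CCM_05789), which makes AMP, rose from 141.9 FPKM to between 322.8 and 395.8 FPKM (edgeR adjusted p 0.00646). The large chain of ribonucleotide reductase (CCM_01863) fell from 69.8 to between 39.1 and 42.9 FPKM (edgeR adjusted p 0.00441), and a GMP synthase gene (CCM_02731) fell by 0.84 (adjusted p 0.00977). With the length trend removed, 3 of the 42 tested genes of this list were higher and 6 lower, where 517 and 941 of all 8758 tested genes were.

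ATP phosphoribosyltransferase, the enzyme whose domain cns3 also carries, opens histidine synthesis. Its gene CCM_06676 stood at 37.0 FPKM in passage 1 and between 60.5 and 77.5 FPKM later (log2 0.64, SE 0.16, edgeR adjusted p 0.0312, and 0.105 with the length trend removed). A second gene with this product, CCM_06677, was listed at 0 in passages 1 to 5. Of 10 histidine genes 9 were tested, with 2 higher and 1 lower later (24% of all genes were called) and a median of 0.18 against 0.05 over all genes. Removing the length trend left 0 higher and 1 lower, where 517 and 941 of all 8758 tested genes were. All 8 genes listed as ABC transporters of the pleiotropic drug resistance kind were tested. Their product texts name ABC transporters or drug exporters and not this kind, so membership in it was not checked. Of the 8, 0 were higher and 3 lower later, where 14.4% of all genes were lower. Their median log2 difference was -1.11 against 0.05 over all genes. The list holds long genes, and with the length trend removed its median was -0.58 and 1 was lower, as were 941 of 8758 genes. That gene was Mdr1 (CCM_02386), which fell from 65.1 FPKM to between 12.9 and 25.9 FPKM (log2 -2.06, SE 0.27, edgeR adjusted p 0.00472). The ABC-2 type transporter CCM_01696 had 587.9 FPKM in passage 1 and 108.8 to 267.4 FPKM later.

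The coding sequences of the cluster differed from the reference genome at the same sites in every passage. A site was read where each of the 6 libraries had at least 10 reads, and called fixed where at least 95% of reads in each carried the second base. Of 88 exonic sites listed in the 4 genes, 70 could be read and 68 were fixed in all 6 libraries, 15 in cns1, 13 in cns2, 19 in cns3 and 21 in cns4. Of the fixed sites, 16 change an amino acid, or 23.5%, against 23.6% over all genes. They were unevenly spread, with 7 in cns1, 7 in cns4, 1 in cns2 and 1 in cns3. cns2 had 12.5 fixed sites per kb of coding length and cns4 5.13, against a median of 3.85 per kb over 6057 genes. No listed exonic site in the 4 genes was other than a synonymous (69) or an amino acid (19) change, so none was a stop or a shift of frame. These are differences of the YCC strain from the reference and not between passages.

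Changes are written with the reference letter, the position from the start of the coding sequence or protein, and the second letter. In cns1 the fixed amino acid changes were A49P, R50L, R100G, C102F, Y256F, A485V and V666A. cns2 had P314Q and cns3 had T42A. In cns4 they were S42A, L287I, F317Y, T336I, S432G, L511M and I715T. Fixed sites were covered by 40 to 994 reads in cns1 and by 11 to 77 reads in cns4. The deposited positions lie on scaffold NW_006271971.1, with cns1 and cns4 on the minus strand and cns2 and cns3 on the plus strand. No source used here names the genome build.

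One site of cns1, at position 2545991 in exonic sequence, carried both bases. The change T1147C, which gives S383P, was seen in 7 of 36, 5 of 43, 0 of 20, 3 of 33, 4 of 17 and 18 of 70 reads over passages 1 to 6. As shares these were 19.4% (95% Wilson interval 9.75% to 35.0%) in passage 1, 11.6% (5.07% to 24.5%) in passage 2 and 9.09% (3.14% to 23.6%) in passage 4. Passage 5 had 23.5% (9.56% to 47.3%) and passage 6 25.7% (16.9% to 37.0%). The 0 of 20 reads in passage 3 allow a share of up to 15%. The interval of passage 3 ends at 16.1% and that of passage 6 starts at 16.9%, so this pair does not overlap, while every other pair does. The passages were not tested against each other at this site. The authors' deposited table of editing events lists the same site in passages 1, 2, 5 and 6, and no other site of the 4 genes among its 11304 events. Depth was low around this site: the neighbouring V387I site had 6 to 14 reads, whereas the Y256F site had 203 to 910 and the A485V site 164 to 554. The part of this local depth in the mixed signal was not tested. The only other site read as mixed, A3993G in cns4, rested on 1 reference read of 11 in passage 1. At a further cns4 site too shallow to be read, A3192G, singled out after its values were seen, passages 1 and 4 had only reference reads (3 and 7) and passages 2, 3 and 6 only the second base (1, 3 and 4).

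**Figure D5:**
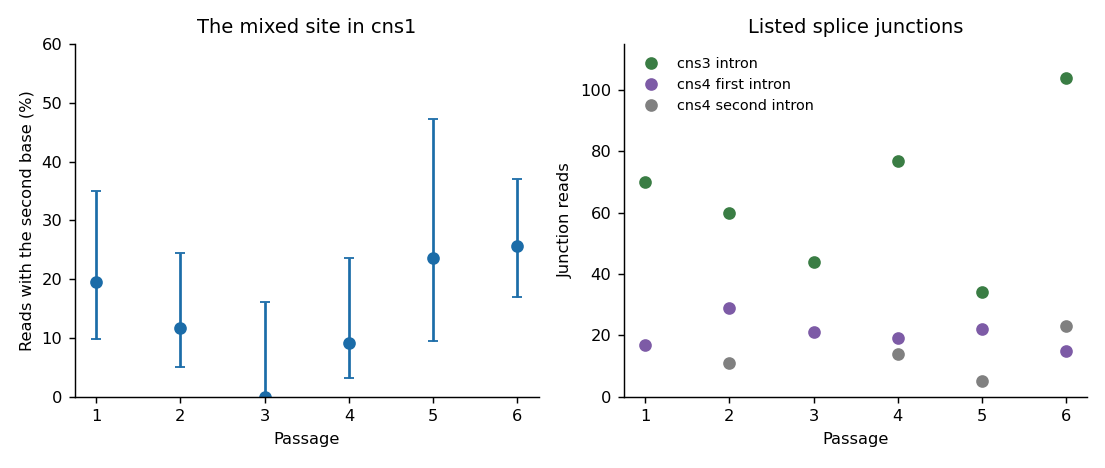
Left, share of reads with the second base at the mixed site of cns1 by passage, with 95% Wilson intervals, of which those of passages 3 and 6 alone do not overlap. Right, reads over the listed splice junctions of cns3 and cns4; the cns3 intron has 34 to 104 reads and the second cns4 intron is listed in passages 2, 4, 5 and 6.

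The splice junctions differed from the annotation in cns3 and cns4, alike in all libraries that list them. The cns3 junction, classed by the authors as a changed 3' splice site, spanned an intron of 56 bases from 2551651 to 2551706, against 47 in the annotation. The difference of 9 bases keeps the reading frame. It had 70, 60, 44, 77, 34 and 104 reads in passages 1 to 6, and the annotated form was not listed in any of them. At a site inside this intron the depth was 0 to 6 reads, so spliced reads made up 87.2% to 100% of the sum. The lowest share, in passage 5, had a Wilson interval of 73.3% to 94.4%. The junction tables list counts of 5 or more, so an unlisted junction may still have had reads.

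In cns4, the first intron of 51 bases matched the annotation and had 17, 29, 21, 19, 22 and 15 reads in passages 1 to 6. The second intron was 53 bases long, from 2554840 to 2554892, against 71 derived from the annotated coding length, again an in-frame difference, of 18 bases. It was listed with 11, 14, 5 and 23 reads in passages 2, 4, 5 and 6. cns2 had a rare spliced form without 92 bases of its exon, with 14 reads in passage 2 and 11 in passage 6. Set against depth inside that stretch, these were 2.30% (Wilson interval 1.38% to 3.83%) and 1.39% (0.780% to 2.48%) of reads, in the 2 libraries where cns2 was highest. cns1 had a junction of 59 bases with 10 reads in passage 6, where its own count was highest. The 92 bases of cns2 are not a multiple of 3. The cns1 junction ran from 2544715 to 2544773, downstream of the last listed cns1 site, coding position 2142 at 2544996. If no intron follows that site, the coding end at the derived length of 2379 bases lies inside this junction. Its effect on the protein was not determined.

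Of the 4 genes, cns3 alone was given an extended model among the 3695 in the authors' list. That list numbers genes by running order and not by locus tag, so models were matched by their coordinates. The cns3 model, from 2551291 to 2553953, gained 493 bases upstream in 3 pieces, from 2550668 to 2550700, from 2550757 to 2550926 and from 2550999 to 2551291. Positions and total are given as listed by the authors. The last piece ends on the first base of the model, and the pieces counted with both ends do not add up to exactly 493. Of the 2010 models extended upstream, 27.5% gained at least as much, and the median gain was 273 bases. The gap between the last 2 pieces was also seen as a junction of 72 bases with 7, 7 and 6 reads in passages 2, 3 and 4. No downstream extension was listed for cns3.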

How the data were processed

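The members, gene lists and tests were chosen with earlier results of these data known. The authors deposited expected counts and FPKM per gene, and the submitters' processing notes name TopHat2, Bowtie, Cufflinks, FastQC and edgeR; no source used here gives versions, settings or strand use, so reads of overlapping or antisense genes could not be told apart. FPKM are scaled per kilobase and library by the authors. The authors' deposited tables against passage 1 give log2 ratios and p-values with FDR. Their variant table gives a quality score and pairs of reference and alternative reads, the deposited editing table a fraction of reads, and the deposited junction tables read counts. The work left 56 other columns of values per sample unread.

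Expected counts were rounded, scaled by TMM in edgeR 4.0.16 (R 4.3.3) and turned into log2 CPM with a prior count of 1. Ratios were counted at 2-fold over genes averaging 1 FPKM or more, and likeness over genes averaging 10 or more. Both edgeR quasi-likelihood tests were two-sided, used genes passing filterByExpr, and were adjusted by Benjamini-Hochberg at 0.05. Whether the libraries stand for separate cultures beyond their passage is not stated. In simulated counts, the trend test recovered 98 of 100 genes with a slope of 0.5, with 10 false calls among 8698 genes. The test of passage 1 recovered 92 of 100 genes with a log2 difference of 1.5, with 13 false calls among 8700 genes. The simulated libraries were independent and had the same fixed dispersion for every gene. Recovery there does not measure power in these data, where the slope had an SE of 0.15 for cns1 and 0.13 for cns2. The length trend is a lowess curve (span 0.3) of each library's deviation on gene length. Alternatives were DESeq2 1.42.0, limma 3.58.1, other scalings, no filter, a prior count of 5 and leaving out each library. Intervals are 95% and cover counting error only. The share of reads at a site uses a Wilson interval (scipy 1.17.1), and the limit for 0 reads is 3 reads of the total. Coding lengths were derived from counts and FPKM. Genes named are the cluster, 5 neighbours on each side, the 5 most alike per member and, from each list, the deaminase, kinase and phosphoribosyltransferase genes and up to 6 more with the smallest p. No sequences are shown.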

Additional observations from a re-analysis of the deposited data

How the results depend on the processing

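No paired analysis was possible because each passage has 1 library. Ratios to passage 1 stayed within their counting intervals in 20 of 20 cases with DESeq2's size factors. They also did in 20 of 20 with a prior count of 5, which could hardly move them, as the smallest cluster count was 509. They left the intervals in 20 of 20 cases with deposited FPKM and in 20 of 20 with the length trend removed. On site depth they left them in 16 of 20 cases upstream and in 16 of 20 downstream. The number of genes called for the trend was 56 with DESeq2, and 0 without any 1 library. The cluster genes called for passage 1 were 0 with limma on FPKM and 0 with the length trend removed, and 1 without any 1 later library, where all genes called ran from 1406 to 2543. At least 2-fold lower in passage 4 were 0 cluster genes with FPKM and 0 with the length trend removed; under the latter 2 were lower in passage 5 and 0 higher in passage 6, and the cns2 to cns1 ratio was 1.19 in passage 1 (above 1 instead of below), 1.82 in passage 2 and 1.98 in passage 6. On site depth, an alternative chosen after seeing the data, this ratio was 0.477, 1.08, 1.76, 1.18, 1.15 and 1.22 upstream in passages 1 to 6, and 1.23 (above 1), 1.51, 1.47, 1.08, 1.496 and 1.29 downstream. Over passages 4 to 5, cns2 with DESeq2's size factors and cns3 with the length trend removed were just short of 2-fold. The cause was not tested. Without passage 1, r was 0.981 for cns1 and cns2, 0.105 for cns1 and cns4, 0.292 for cns2 and cns4, 0.827 for cns1 and cns3, 0.892 for cns2 and cns3, and 0.407 for cns3 and cns4; on FPKM the pairs of cns4 had 0.428 with cns1, -0.0773 with cns2 (reversed) and 0.151 with cns3. Signs near 0 also reversed, none of them called: the slope of cns3 was 0.0321 with the length trend removed, and its difference of later passages from passage 1 was 0.15 with that trend removed and 0.00096 with limma on FPKM. Over libraries left out, slopes ran from -0.42 to 0.12 for cns1, -0.21 to 0.19 for cns2, -0.17 to 0.0413 for cns3 and -0.16 to 0.0060 for cns4, and the difference from passage 1 ran from -0.16 to 0.38 for cns2. With a minimum of 5 reads 4 sites were mixed, the added ones resting on single reference reads, and 75 were fixed. All 5 junctions have at least 5 reads, which could not be otherwise, as no smaller count was listed. Depth limits the cns4 sites and junctions most.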
